A study of Mus musculus with 15 samples.

Results

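The 6 genes described here are the platelet-derived growth factor (PDGF) ligands Pdgfa, Pdgfb, Pdgfc and Pdgfd and the PDGF receptors Pdgfra and Pdgfrb. They were chosen by symbol, and all 6 were among the 18279 genes of the expression table. The samples were 15 subcutaneous tumors of Renca, a kidney cancer cell line from a BALB/c mouse, measured by bulk RNA-seq. The study compared 5 control tumors (tumors 1 to 5) with 5 tumors of Pbrm1 knockout clone 4 (tumors 6 to 10) and 5 tumors of Pbrm1 knockout clone 18 (tumors 11 to 15), in order to ask how loss of PBRM1, a subunit of the SWI/SNF chromatin remodeling complex, changed the tumor. All cells were injected with Matrigel into the backs of female Balb/c mice aged 4 to 6 weeks. The labels call the control cells Renca parental, whereas the study describes them as control knockout cells. Each group came from 1 line, and each knockout line was 1 clone made with transiently expressed Cas9, so that genotype and clone cannot be told apart within a group. Tumors were collected at a size limit, at ulceration or at signs of distress, so the day of collection was not shared. The study reports slower growth of untreated knockout tumors than of control tumors, so tumor age may differ with genotype and cannot be told apart from it. Which of the tumors received PD-1 antibody was not given in the sources used here.

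PDGF chains are secreted as dimers that bind and pair their receptors, which are class III receptor tyrosine kinases. PDGF-A and PDGF-C act mainly on PDGFRα, PDGF-D acts mainly on PDGFRβ, and PDGF-B binds both. PDGF-A and PDGF-B are cut by furin-like convertases before release, whereas PDGF-C and PDGF-D are released with an inhibitory CUB domain that plasminogen activators and related proteases remove outside the cell. In solid tumors PDGF-B from the endothelium recruits pericytes through PDGFRβ, PDGFRα is typical of fibroblasts, and both receptors are targets of kinase inhibitors used in kidney cancer.

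Pdgfa and Pdgfb were lower in the Pbrm1 knockout tumors, and the other 4 members did not pass the test. Mean Pdgfa was 61.3% and mean Pdgfb 76.1% of the control mean. Both ligands were lower in each clone, and no member passed the test between the clones. Of 18250 genes tested in knockout against control, 22.1% were called, 12.9% lower and 9.23% higher. Among the members, 2 were called lower and 0 higher, which with 6 genes cannot be set apart from that background. A gene was called when its adjusted p was under 0.05 with limma, fitted on log2(normalized count + 1) over all genes and adjusted by the Benjamini-Hochberg method. Since each group was 1 line, these p-values measure the spread between tumors of those lines.

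Pdgfa lies on the minus strand of mouse build GRCm38 at chr5:138976014-138997370, and Pdgfc lies on the plus strand at chr3:81036416-81214040. RefSeq windows of 250 bases before a transcript start were used for 4 of the 6 members, Pdgfa, Pdgfc, Pdgfd and Pdgfra. The sequences below are those of Pdgfa, the ligand with the largest decrease, and Pdgfc, the ligand at the highest level, which did not pass the test. That of Pdgfa spans chr5:138995038-138995194 on the minus strand, from base -250 to base -94 counted from a RefSeq start. GENCODE has no exon there, but other Pdgfa transcripts start farther upstream, so the stretch lies within the gene as given above, in an intron of its longer transcripts. RefSeq gave a second Pdgfa start, whose window (chr5:138994282-138994531) is not shown. That of Pdgfc spans chr3:81036166-81036415 on the plus strand, from base -250 to base -1, with a CArG box in capitals.
Pdgfa upstream of a RefSeq start: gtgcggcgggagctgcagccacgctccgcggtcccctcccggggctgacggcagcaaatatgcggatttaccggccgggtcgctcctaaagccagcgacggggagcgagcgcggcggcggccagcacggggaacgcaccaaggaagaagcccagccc
Pdgfc upstream of its start: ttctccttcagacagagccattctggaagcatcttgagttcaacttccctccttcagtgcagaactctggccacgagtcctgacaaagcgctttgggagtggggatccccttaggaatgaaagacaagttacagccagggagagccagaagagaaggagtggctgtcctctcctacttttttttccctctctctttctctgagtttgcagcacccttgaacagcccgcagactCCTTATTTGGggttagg
The full Pdgfa window of the start shown was 72.4% G or C and the Pdgfc window 50.8%. A GC box (GGGCGG on either strand) occurred 2 times in that Pdgfa window, at bases -93 and -86 and so after the printed stretch, and in 32.7% of 32851 RefSeq windows of this length. The window of the second Pdgfa start held 1 and was 66.4% G or C. A CArG box was found at base -17 of Pdgfc and in 1.47% of all windows. CCAAT (33.8% of windows), TATAAA (12.4%) and ACGTG (16.6%) were in none of these windows on either strand. These matches describe letters only.

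The depth was 32924414 to 49099168 reads on genes per tumor, with a median of 40860659. Pbrm1 itself was 9012 ± 956 normalized counts in control tumors (SD, n = 5), 2751 ± 213 in clone 4 (n = 5) and 2838 ± 210 in clone 18 (n = 5). All 10 knockout tumors were below every control tumor for Pbrm1 (log2 difference -1.69, SE 0.07, adjusted p = 2.94e-11 with limma), although reads of Gnl3 and Smim4, which overlap it on the other strand, could not be told apart from its own because the strand setting of the counting was not given. The renal epithelial markers Pax8, Cdh16 and Krt8 were above 2719 normalized counts in every tumor. Tumor 13 stood apart from the other clone 18 tumors on the first principal component, and tumor 10 from the other clone 4 tumors on the second; tumor 10 was also the only tumor whose highest gene was the mitochondrial rRNA mt-Rnr2. Without these 2 tumors the calls for the members were the same.

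**Figure D1:**
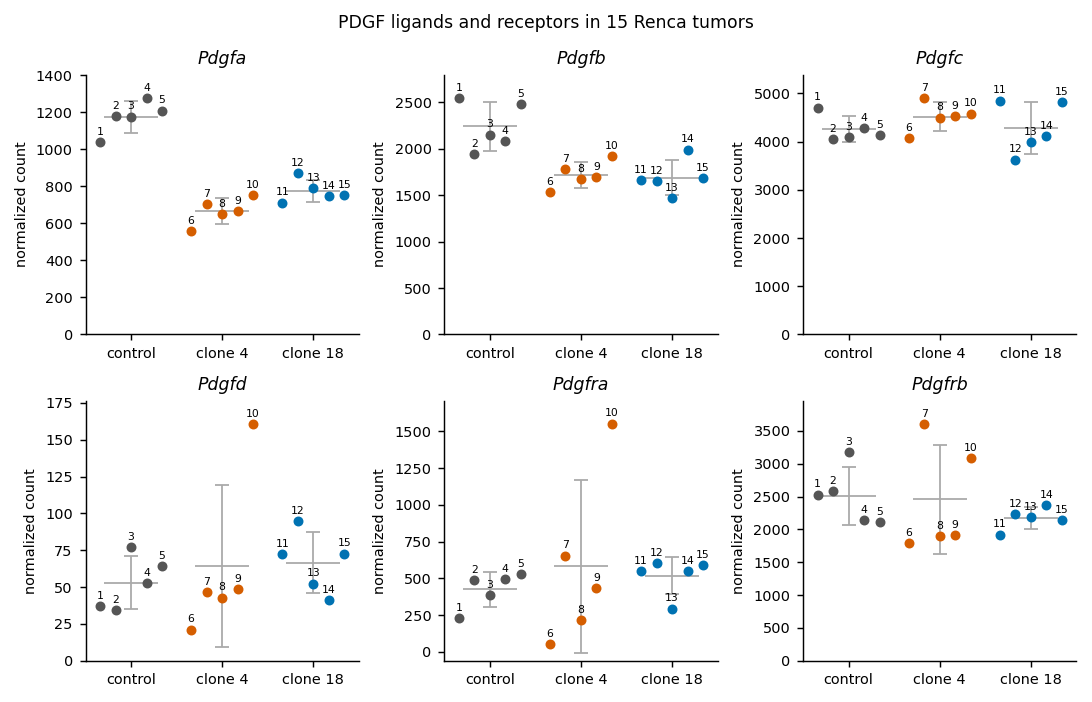
Normalized count (vertical axis, from 0 except for Pdgfra, whose axis starts just below 0) of the 6 PDGF genes in each of the 15 tumors, numbered, by group. Gray lines are the mean and 1 SD of 5 tumors. All knockout points of Pdgfa sit at or below 871.1, under the lowest control point at 1038.7, whereas the groups overlap for the other 5 genes.

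Pdgfa, which encodes the PDGF-A chain, was the member with the clearest separation. Normalized counts in control tumors 1 to 5 were 1038.7, 1177.6, 1175.8, 1275.2 and 1207.5. In clone 4 tumors 6 to 10 they were 559.3, 705.2, 651.5, 666.7 and 751.9, and in clone 18 tumors 11 to 15 they were 711.3, 871.1, 788, 745.8 and 752.3. The highest knockout tumor, tumor 12, was below the lowest control tumor, tumor 1. Every knockout tumor was below every control tumor for 4.87% of all genes tested, Pdgfa among them. Group means were 1175 ± 86.1 in control, 666.9 ± 71.6 in clone 4 and 773.7 ± 60.9 in clone 18 (SD, n = 5 each). The log2 difference of knockout from control was -0.71 (SE 0.09, 95% interval -0.89 to -0.53, adjusted p = 1.79e-05 with limma), or 0.611 times the control level. An exact two-sided permutation test over every split of the 15 tumors into 5 and 10 gave p = 0.000333, the smallest this design allows. Each clone also passed on its own, clone 4 with a log2 difference of -0.82 (adjusted p = 4.73e-06) and clone 18 with -0.60 (adjusted p = 9.88e-05); both comparisons used the same 5 control tumors. Clone 18 was 0.22 higher than clone 4 on the log2 scale (95% interval 0.04 to 0.40), which did not pass after adjustment (adjusted p = 0.177 with limma).

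An antisense RNA, 6330403L08Rik, overlaps Pdgfa on the plus strand. Without a stated strand setting it is unknown how reads were counted where the pair overlaps. Its normalized count was 475 ± 50.05 in control, 474 ± 65.3 in clone 4 and 679 ± 89.9 in clone 18 (SD, n = 5 each). It rose in clone 18 against control (log2 difference 0.51, adjusted p = 0.00403 with limma) and against clone 4 (0.52, adjusted p = 0.0143), whereas knockout against control as a whole did not pass (0.25, adjusted p = 0.247). In clone 4, where Pdgfa fell, the mean of 6330403L08Rik was 99.6% of the control mean.

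Pdgfb, at chr15:79995874-80014977 on the minus strand, encodes the PDGF-B chain, which draws pericytes to vessels. Its normalized counts were 2545, 1941.2, 2153.2, 2078.6 and 2482.6 in control tumors 1 to 5. Clone 4 tumors 6 to 10 had 1529.4, 1777.4, 1670.1, 1697.6 and 1918.2, and clone 18 tumors 11 to 15 had 1659.3, 1653.6, 1466, 1991.7 and 1681.5. Of the 10 knockout tumors, 9 were below every control tumor. The exception was tumor 14 of clone 18, which lay just above control tumor 2. The share of all genes with as many knockout tumors below every control tumor was not computed. The means were 2240 ± 262 in control, 1719 ± 143 in clone 4 and 1690 ± 189 in clone 18 (SD, n = 5 each). Pdgfb fell by 0.39 on the log2 scale in knockout tumors (SE 0.08, 95% interval -0.55 to -0.23, adjusted p = 0.00154 with limma; exact permutation p = 0.000666). The knockout level was 0.762 times the control level. The decrease passed with limma in clone 4 (log2 difference -0.38, adjusted p = 0.00789) and in clone 18 (-0.41, adjusted p = 0.00358). The clones differed by -0.03 in Pdgfb (95% interval -0.22 to 0.16, adjusted p = 0.916 with limma).

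Pdgfc encodes the PDGF-C chain, a ligand of PDGFRα. Control tumors 1 to 5 had 4705.9, 4043.5, 4090.4, 4286 and 4139.4 normalized counts of Pdgfc. Clone 4 tumors 6 to 10 had 4069.4, 4900.2, 4496, 4521.6 and 4581.7, and clone 18 tumors 11 to 15 had 4849.4, 3626, 3983.2, 4107.7 and 4820.6. The 3 groups overlapped, and both the lowest and the second highest values were in clone 18. The log2 difference of knockout from control was 0.04 (95% interval -0.10 to 0.19, adjusted p = 0.718 with limma), so the interval bounds the Pdgfc level between 0.931 and 1.14 times that of control.

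Pdgfd, at chr9:6168584-6378850 on the plus strand, encodes the PDGF-D chain and rested on 22 to 144 reads per tumor. Its normalized counts were 37.1, 34.3, 77, 52.7 and 64.5 in control, 21.2, 46.8, 42.8, 48.9 and 160.4 in clone 4, and 72.5, 94.7, 52.4, 41.1 and 72.8 in clone 18, in the order of the tumor numbers. Tumor 10 was more than 3 times any other clone 4 tumor, and the remaining tumors overlapped. The log2 difference of 0.17 (95% interval -0.57 to 0.91, adjusted p = 0.789 with limma) left room for a change in either direction, and a difference in Pdgfd was not detectable at this depth and spread.

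**Figure D2:**
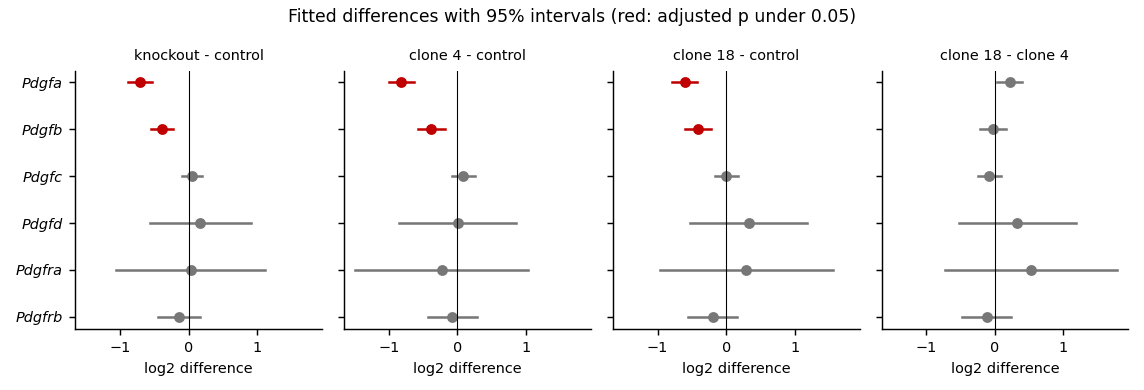
Log2 difference (horizontal axis) of each PDGF gene in the 4 comparisons, with 95% intervals from limma; red marks an adjusted p under 0.05 over all genes. Pdgfa and Pdgfb are to the left of 0 in the 3 comparisons with control, which share the same control tumors, while Pdgfra has the widest intervals, from -1.06 to 1.12 in knockout against control.

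By clone, 2 of the 6 members were called in clone 4 (16.8% of all genes tested), 2 in clone 18 (24.7%) and 0 between clone 18 and clone 4 (4.62%). The members called in each clone were Pdgfa and Pdgfb. Between the clones, Pdgfa alone had an unadjusted p under 0.05 (0.0218), and 0 members were called there with edgeR or DESeq2.

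Per kilobase of exon, which allows different genes to be compared, Pdgfc was the highest member in control tumors, at 836 ± 52.9 normalized counts (SD, n = 5). Pdgfb followed at 538 ± 63.0, Pdgfrb at 458 ± 79.5 and Pdgfa at 377 ± 27.6, while Pdgfra was at 42.5 ± 12.1 and Pdgfd at 16.8 ± 5.74. Neighbors in this order overlapped over the 5 tumors for Pdgfb and Pdgfrb, for Pdgfrb and Pdgfa, and for Pdgfra and Pdgfd. Pdgfc in control was above Pdgfb in every tumor, and Pdgfa above Pdgfra. The lengths were those of all annotated exons of a gene, and the isoforms used in these tumors were not measured.

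In the 10 knockout tumors the mean level per kilobase was 864 ± 84.2 for Pdgfc, 423 ± 107 for Pdgfrb, 410 ± 38.2 for Pdgfb, 231 ± 27.0 for Pdgfa, 54.9 ± 40.2 for Pdgfra and 20.7 ± 12.4 for Pdgfd. Pdgfb and Pdgfrb thus changed places in the order, but their ranges overlapped in both groups. Pdgfa, which overlapped Pdgfrb in control, was below every Pdgfrb value in knockout tumors, at 179 to 279 against 326 to 657.

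The 4 ligands together had 1768 ± 88.5 normalized counts per kilobase in control (SD, n = 5), 1534 ± 119 in clone 4 and 1516 ± 99.7 in clone 18. Pdgfa made up 21.4% ± 2.19 of that sum in control, 13.9% ± 0.474 in clone 4 and 16.5% ± 2.28 in clone 18. The share of Pdgfb was 30.4% ± 2.21, 26.9% ± 0.640 and 26.8% ± 2.74 in the same order. Pdgfc was the largest share in each group, with 47.3% ± 1.68 in control, 57.9% ± 1.95 in clone 4 and 55.3% ± 3.95 in clone 18. It ranged from 44.8 to 49.2% in control and from 50.2 to 59.5% in knockout tumors, so these ranges did not overlap, while the Pdgfc level itself did not pass the test. Pdgfd stayed a minor ligand, with at most 3.08% in any tumor. These shares restate the levels above and were not tested.

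**Figure D3:**
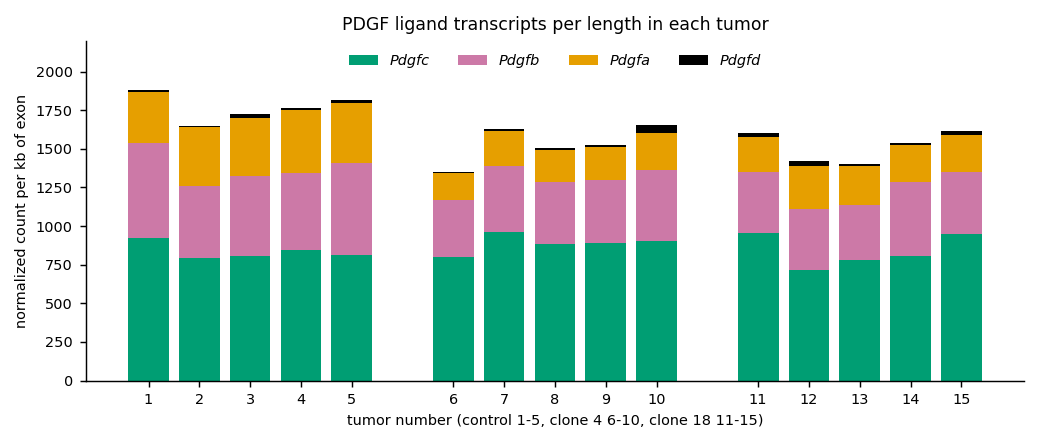
Normalized count per kilobase of exon (vertical axis, from 0) of the 4 PDGF ligands, stacked for each of the 15 tumors by number. The stacks reach 1650 to 1881 in control and 1353 to 1653 in knockout tumors, and the Pdgfa and Pdgfb layers are thinner in knockout tumors while the Pdgfc layer is similar.

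The ratio of Pdgfa to Pdgfb per kilobase was 0.71 ± 0.115 in control, 0.517 ± 0.0165 in clone 4 and 0.618 ± 0.0917 in clone 18 (SD, n = 5 each). All clone 4 tumors were below every control tumor in this ratio, at 0.488 to 0.529 against 0.544 to 0.818, whereas clone 18, at 0.500 to 0.717, overlapped both. Set against Pdgfrb, its receptor on mural cells, Pdgfb was at a ratio of 1.21 ± 0.267 in control and 1.00 ± 0.173 in the 10 knockout tumors, and these ranges overlapped.

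Pdgfra encodes PDGFRα and lies at chr5:75152292-75198215 on the plus strand. Control tumors 1 to 5 had 230.9, 487.1, 388.5, 494.2 and 529.7 normalized counts of Pdgfra. Clone 4 tumors 6 to 10 had 53, 655.5, 215.8, 433.5 and 1552.9, and clone 18 tumors 11 to 15 had 552.1, 604.1, 294.5, 548.3 and 593.3. Clone 4 held both the lowest and the highest value of all 15 tumors, 29.3-fold apart, and spanned the other groups. The log2 difference of knockout from control was 0.03 (95% interval -1.06 to 1.12, adjusted p = 0.976 with limma). For clone 4 the log2 difference was -0.23 (adjusted p = 0.848) although its mean, 582 ± 588, was above the control mean, 426 ± 121 (SD, n = 5 each), and edgeR and DESeq2 gave differences above 0. No direction can be given for Pdgfra. Its pooled within-group SD on the log2 scale was 1.12, and 98.1% of 16494 genes, those averaging 10 or more normalized counts, had a lower one.

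Pdgfrb encodes PDGFRβ, the receptor of pericytes and other mural cells, and lies at chr18:61045150-61085061 on the plus strand. Its normalized counts in control tumors 1 to 5 were 2531.1, 2584.1, 3183.5, 2140.2 and 2106.2. Clone 4 tumors 6 to 10 had 1787.9, 3598.7, 1902.8, 1916 and 3091.2, and clone 18 tumors 11 to 15 had 1922.6, 2230.7, 2184.7, 2375.6 and 2146.1. Tumors 7 and 10 of clone 4 were high and the other 3 low, while clone 18 lay within a 1.24-fold range that overlapped control. The log2 difference of knockout from control was -0.13 (95% interval -0.44 to 0.17, adjusted p = 0.567 with limma). The within-group SD of Pdgfrb on the log2 scale was 0.31. Pdgfa, Pdgfb and Pdgfc had 0.13, 0.15 and 0.13, below the median of 0.19 over all 16494 genes, and Pdgfd had 0.71.

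Levels of both receptors can be read beside markers of the cells that carry them. Fibroblast markers, 12 genes with Pdpn the highest per kilobase, summed to 11543 to 16431 normalized counts per kilobase in control, 8757 to 30588 in clone 4 and 15527 to 24499 in clone 18. Tumor 6 had the lowest sum and tumor 10 the highest, the same tumors that had the lowest and highest Pdgfra. Mural cell markers, 12 genes with Rgs5 the highest per kilobase, summed to 3071 to 6499 in control, 3888 to 7835 in clone 4 and 5150 to 6062 in clone 18. Within clone 4, tumor 6 was lowest and tumors 7 and 10 were highest for both the mural sum and Pdgfrb, and tumor 3 was the highest control tumor for both. Over all 15 tumors the extremes differed, with the lowest mural sum in tumor 2 and the highest Pdgfrb in tumor 7. With each group centered on its mean log2 value, Pearson's r over the 15 tumors was 0.875 between Pdgfra and the fibroblast sum (0.791 without tumor 10) and 0.623 between Pdgfrb and the mural sum (0.519 without tumor 10). Of the fibroblast list 0 of 12 genes were called in knockout against control with limma, edgeR or DESeq2 (1 at an unadjusted p under 0.05, Pdpn). Pdpn passed in clone 18 against control (log2 difference 0.35, adjusted p = 0.042 with limma) and was also called there with edgeR and DESeq2. It did not pass in clone 4 (0.16, adjusted p = 0.414 with limma). Of the mural list 1 of 12 was called, Des, an intermediate filament of muscle and pericytes, which rose by 0.42 on the log2 scale (adjusted p = 0.0258 with limma). Des rose in clone 18 against control (0.64, adjusted p = 0.000226 with limma) and against clone 4 (0.45, adjusted p = 0.0143). It did not pass in clone 4 against control (0.19, adjusted p = 0.236). In bulk tumors fewer cells of a type and less RNA per cell cannot be told apart, and the part of cell makeup in the receptor levels was not tested.

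**Figure D4:**
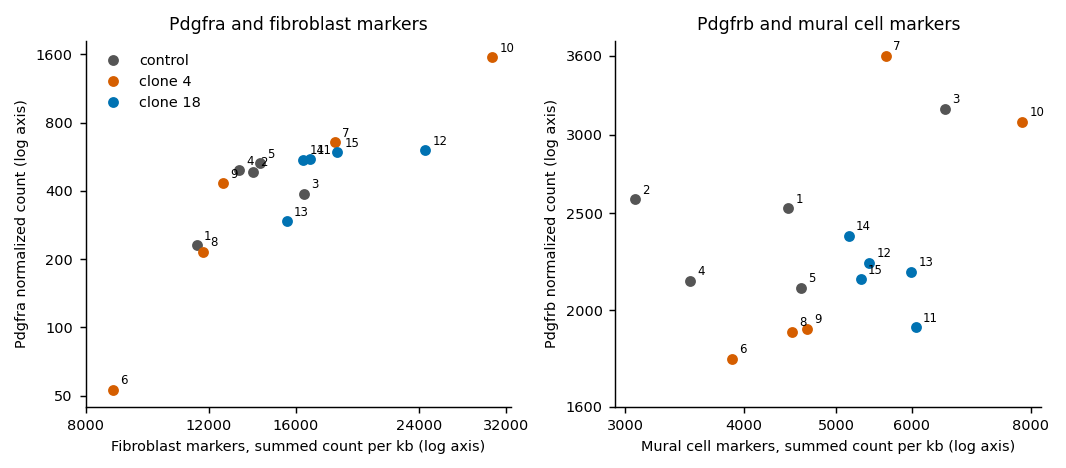
Left, Pdgfra normalized count against the summed level per kilobase of 12 fibroblast markers; right, Pdgfrb against 12 mural cell markers; all axes are log axes and each numbered point is 1 tumor. Tumor 6 (53 normalized counts of Pdgfra) and tumor 10 (1552.9) stand at opposite ends of the left plot. On the right, tumors 7 and 10 of clone 4 and tumor 3 of control are the highest of their groups on Pdgfrb and on the marker sum.

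The ligands that fell come from several cell types, so other marker lists are given beside them. Endothelial markers, 11 genes with Esam the highest per kilobase, had 0 called in knockout against control with limma (1 at an unadjusted p under 0.05) and 1, Esam, with edgeR and with DESeq2. Their sums were 1799 to 3303 normalized counts per kilobase in control and 2118 to 3666 in knockout tumors. By clone, Esam passed in clone 18 (log2 difference 0.28, adjusted p = 0.0461 with limma) but not in clone 4 (0.19, adjusted p = 0.206). Macrophage markers had 4 of 8 called lower in knockout against control, where 12.9% of all genes were lower. They were Mrc1, a mannose receptor (log2 difference -0.48, adjusted p = 0.0353 with limma), and the complement genes C1qa (-0.38, adjusted p = 0.0162), C1qb (-0.46, adjusted p = 0.00524) and C1qc (-0.54, adjusted p = 0.00127). In clone 4 only 2 of the 8 were called, C1qb and C1qc, where 16.8% of all genes were called. Mrc1 and C1qa did not pass there (adjusted p = 0.2 and 0.131 with limma). In clone 18, 6 were called lower and 1 higher, where 24.7% of all genes were called. Cd68, a lysosomal protein and after C1qa the highest of the list per kilobase, went the other way in clone 18, where it rose against control (log2 difference 0.38, adjusted p = 0.018 with limma) and against clone 4 (0.52, adjusted p = 0.00998), while clone 4 against control was -0.14 (adjusted p = 0.445). The macrophage sums were 38076 to 50503 in control and 30183 to 39865 in knockout tumors. Of 4 measured platelet and megakaryocyte markers, Itga2b, an integrin chain, rose by 0.96 on the log2 scale (adjusted p = 0.00154), Pf4 was the highest per kilobase, and Gp9 was at 0 to 5.7 normalized counts. Itga2b passed in clone 4 (0.58, adjusted p = 0.00369 with limma) and in clone 18 (1.34, adjusted p = 8.4e-07). It was higher in clone 18 than in clone 4 (0.77, adjusted p = 0.00123). Of 8 renal epithelial markers, led by Krt8, Krt18 fell by 0.32 (adjusted p = 0.0197) and Epcam, a cell adhesion protein, rose by 1.23 (adjusted p = 0.00286). Krt18 passed in clone 18 (-0.35, adjusted p = 0.0245 with limma) but not in clone 4 (-0.29, adjusted p = 0.0777), whereas Epcam passed in each clone. Skeletal muscle markers, led by Acta1, had 0 of 6 called with limma (2 at an unadjusted p under 0.05), 4 with edgeR and 5 with DESeq2, and their sums were 63.3 to 120.0 in control, 43.8 to 496 in clone 4 and 73.2 to 835 in clone 18. The 5 highest muscle sums, 382 to 835, were all in knockout tumors (9, 10, 11, 14 and 15). Of 5 adipocyte markers, led by Pnpla2, Lep was lower (mean 9.44 and 1.25 normalized counts, adjusted p = 0.00422). The macrophage sum was thus lower in the groups in which Pdgfa and Pdgfb were lower, but not it alone. Mean renal epithelial sums were 59938.5 in control, 51441.5 in clone 4 and 50304.8 in clone 18, and mean adipocyte sums 736, 624 and 615. Mean platelet sums were also lower in both clones, whereas mean fibroblast, mural, endothelial and muscle sums were higher. Within groups the macrophage sum had an r over the 15 tumors of -0.183 with Pdgfa and 0.045 with Pdgfb. That of the endothelial sum with Pdgfb was 0.635. The part of these cells in the decrease of Pdgfa and Pdgfb was not tested.

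Within groups, members varied together to different extents. After each group was centered on its mean, Pearson's r over the 15 tumors was 0.790 between Pdgfd and Pdgfra, 0.777 between Pdgfa and Pdgfra, 0.713 between Pdgfa and Pdgfd, and 0.577 between both receptors. The 15 pairs ranged from -0.224, for Pdgfa and Pdgfc, to 0.790. Pdgfa and Pdgfb, which both fell, had an r of 0.064 within groups. Within a tumor, all members come from the same library and share its depth scaling. Pdgfd and Pdgfra also share a single high tumor, tumor 10. In clone 4, tumor 6 was lowest and tumor 10 highest for Pdgfa, Pdgfd and Pdgfra alike. The r of these pairs without tumors 6 and 10 was not computed.

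The genes whose within-group pattern over the 15 tumors was most like that of each member, out of 16493, were found by the same r. For Pdgfra they were Dcn (r = 0.959), a matrix proteoglycan, Scara3 (0.955) and Podn (0.952). Pdgfrb was most like Fscn1 (0.938), an actin-bundling protein, Adgrl1 (0.908) and Col6a3 (0.906), a collagen VI chain. Pdgfd was nearest to P3h4 (0.927), Ass1 (0.925), an enzyme of arginine synthesis, and Ifitm1 (0.922). Dcn and Col6a3 are in the fibroblast list. Among the better expressed ligands, Pdgfa was most like Micu3 (0.905), Gpc3 (0.894), a glypican, and Gm16103 (0.866). Pdgfb was most like Pde7b (0.866), a cAMP phosphodiesterase, Klrk1 (0.853), the receptor NKG2D, and Fcgr4 (0.845), an Fc receptor. Pdgfc was most like Arf2 (0.931) and Stx6 (0.927), which act in membrane traffic, and Ccdc32 (0.907).

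Around the ligands and receptors, 57 genes of PDGF processing, binding, signaling and feedback and of the related class III receptors were measured. Of these, 7 were called lower (12.3%) and 2 higher (3.51%) in knockout tumors, near or below the backgrounds of 12.9% and 9.23%, with a median log2 difference of -0.05 against -0.02 over all genes. The count of lower genes was 12 (21.1%) without tumor 10, where 13.4% of all genes were lower. Both edgeR and DESeq2 called 5 higher (8.77%), where 10.6% and 11.4% of all genes were higher.

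Of 7 proteases that process PDGF chains, limma called 1 higher and 1 lower. Both edgeR and DESeq2 also called Pcsk6, which had a log2 difference of 0.83 with limma (adjusted p = 0.139). Plau, the plasminogen activator uPA, which can activate PDGF-D, was 9869 ± 1286 normalized counts in control, 18866 ± 2870 in clone 4 and 15482 ± 2017 in clone 18 (SD, n = 5 each). All 10 knockout tumors were above every control tumor for Plau (log2 difference 0.79, SE 0.11, adjusted p = 8.54e-05 with limma). The share of all genes that separate upward in this way was not computed. St14, the membrane protease matriptase, which can also cut PDGF-D, was 186 ± 59.7 in control, 51.0 ± 12.8 in clone 4 and 28.7 ± 7.43 in clone 18. The log2 difference of St14 was -2.22 (SE 0.28, adjusted p = 2.28e-05 with limma), and all 10 knockout tumors were below every control tumor, as for 4.87% of all genes. The convertase Furin had a log2 difference of -0.01 (adjusted p = 0.958) and Plat, the activator of PDGF-C, had -0.06 (adjusted p = 0.793).

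Among 5 binding proteins and co-receptors, Nrp1, a co-receptor for PDGF and VEGF, was called lower (log2 difference -0.33, adjusted p = 0.0412 with limma). By clone, Nrp1 passed in clone 18 (-0.41, adjusted p = 0.0202) but not in clone 4 (-0.24, adjusted p = 0.206). Of 18 genes of proximal signaling 3 were called lower with limma: Gab1, an adaptor (-0.41, adjusted p = 0.00342), and the PI3-kinase subunits Pik3r1 (-0.41, adjusted p = 0.00392) and Pik3cb (-0.32, adjusted p = 0.00801). The subunit Pik3r2 went the other way (0.16, adjusted p = 0.0732 with limma). It passed in clone 18 against control (0.21, adjusted p = 0.0307), and edgeR and DESeq2 called it in knockout against control. Gab1 was lower in clone 18 than in clone 4 (-0.31, adjusted p = 0.0245). Of 10 negative regulators, Spry2, a feedback inhibitor of receptor tyrosine kinases, rose by 0.65 (SE 0.10, adjusted p = 0.000187). All 10 knockout tumors were above every control tumor for Spry2, a separation whose share over all genes was not computed. Spry1, its paralog, moved in opposite directions in the clones, up in clone 4 against control (0.38, adjusted p = 0.0281 with limma) and down in clone 18 (-0.45, adjusted p = 0.00798), and clone 18 was below clone 4 (-0.84, adjusted p = 0.000244). In the pooled comparison Spry1 was at -0.03 (adjusted p = 0.929). Ptprj, another of the negative regulators, was lower in clone 18 than in control (-0.37, adjusted p = 0.00613 with limma). Against clone 4 it was at -0.32 (adjusted p = 0.0499 with limma), and edgeR did not call it there. Ptprj did not pass in the pooled comparison (-0.21, adjusted p = 0.156 with limma).

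Of 10 immediate early genes that growth factors induce, 0 were called with limma in knockout against control, the nearest being Egr2 with 0.35 (adjusted p = 0.0536; chosen after its value was seen). At an unadjusted p under 0.05 there were 3 with limma, and edgeR and DESeq2 each called 1 of the 10, Egr2. In clone 18 against control limma called 2, Egr2 (log2 difference 0.42, adjusted p = 0.037) and Myc (-0.39, adjusted p = 0.0337). Among 7 genes of the related class III receptors, Csf1r, the receptor of macrophages, fell by 0.60 (adjusted p = 0.00331 with limma) and its ligand Il34 by 0.90 (adjusted p = 0.000662). Il34 was also lower in clone 18 than in clone 4 (-0.57, adjusted p = 0.0157). Csf1r fell beside the macrophage markers given above.

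**Figure D5:**
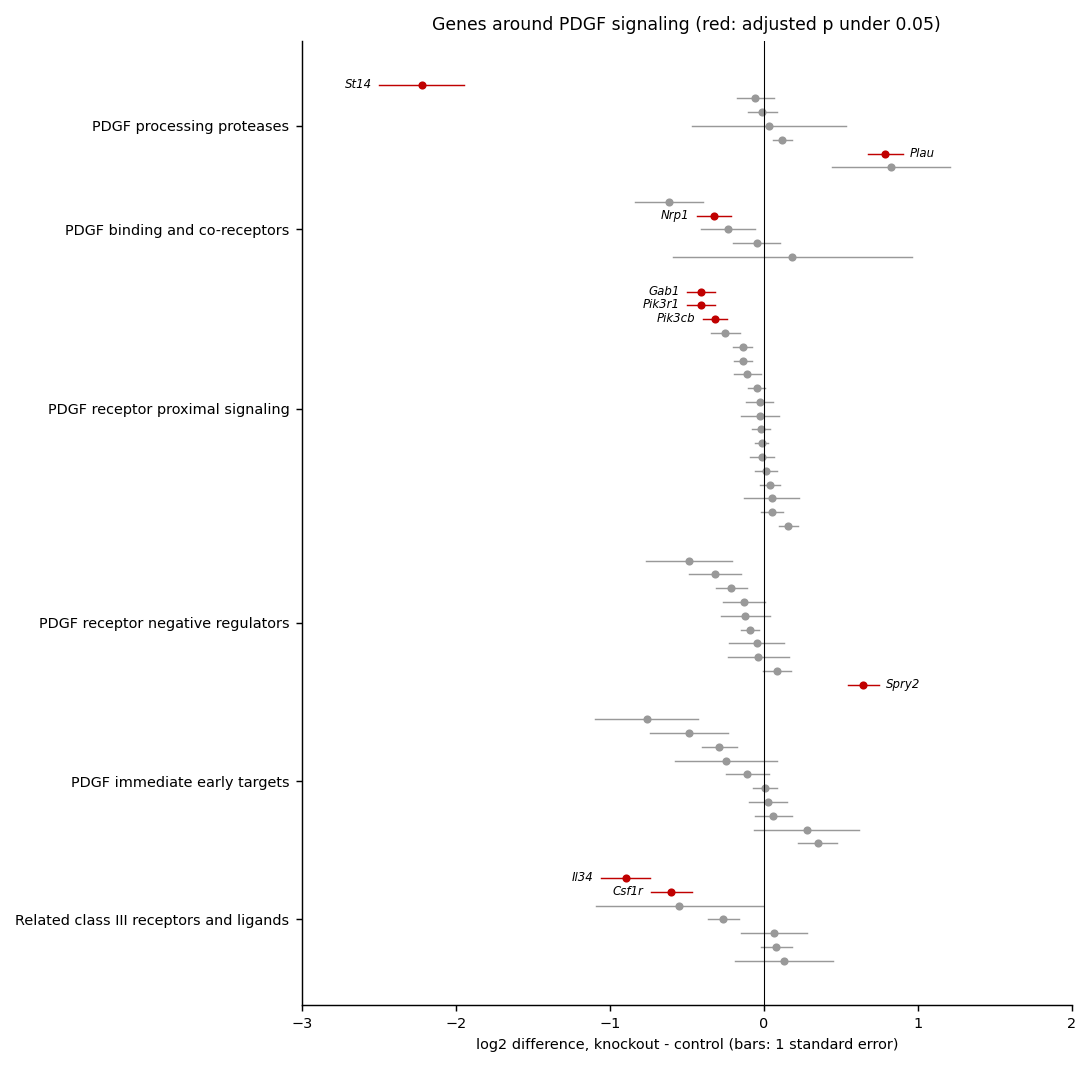
Log2 difference of knockout from control (horizontal axis) for 57 genes around PDGF signaling in 6 lists, 1 gene per line, with bars of 1 standard error; red marks an adjusted p under 0.05. St14 (-2.22) is farthest to the left and most other genes lie near 0, with 7 red points to the left and 2 to the right.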

How the data were processed

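Total RNA of 15 tumors was sequenced. The authors used TopHat2 for alignment to mm10, HTSeq for counting per gene and DESeq for normalization. The deposited values are size-factor normalized counts (a signal, not raw counts) with 1 decimal; versions, annotation and strand setting were not given in the sources used here. Dividing each tumor's values by its step (0.881 to 1.309) gave whole reads for 100% of values up to 8000 within 0.06.

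The main test was limma (version 3.58.1) with trend on log2(normalized count + 1) for 18250 genes above 0 in at least 1 tumor. Knockout and control were 2 groups in one fit and the 3 lines separate groups in another, and adjustment was by Benjamini-Hochberg. Alternatives were pseudocounts of 0.1 and 5, a mean of at least 10, upper quartile scaling, DESeq2 (1.42.0) or edgeR (4.0.16) on those whole reads, limma without its trend, and each tumor left out. Fold changes on this scale understate changes of low genes. Exact permutation tests used every split into 5 and 10 tumors. The limma step was tested on simulated data.

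Positions and exon lengths were from GENCODE M21 (GRCm38) and promoter windows from RefSeq (GRCm38.p6), matched by symbol. The members and lists were chosen with earlier results of these data known. Named were the members, Pbrm1, the up to 20 pathway genes past 0.05 with a mean of at least 10 and the largest differences, the 3 genes most like each member, and of each marker list its highest gene per length and those past 0.05. Other genes named were picked after their values were seen.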

Additional observations from a re-analysis of the deposited data

Results flagged for a closer look

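Pdgfd in tumor 10 of clone 4 was 160.4 normalized counts, far from the other clone 4 tumors at 21.2 to 48.9. Pdgfra in tumor 13 of clone 18 was 294.5 normalized counts, below the others of its clone at 548.3 to 604.1. The summed skeletal muscle markers were 120.0 normalized counts per kilobase in control tumor 1 and 63.3 to 78.3 in the other control tumors. Dixon's test was run on 51 groups of 5 tumors and found these 3, where chance gives about 2.55. The difference of 6330403L08Rik, the antisense RNA that overlaps Pdgfa, from control was 0.52 higher in clone 18 than in clone 4 on the log2 scale (limma, adjusted p = 0.0143).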

How the results depend on the processing

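Over 23 alternatives, the log2 differences of the 6 members in 4 comparisons gave 552 values, of which 520 kept their direction and their side of the threshold and 32 changed sign, with 0 calls gained or lost. Pdgfa in knockout against control ranged from -0.755 to -0.672 (adjusted p up to 0.000135) and Pdgfb from -0.441 to -0.344 (adjusted p up to 0.00741). All sign changes were in differences that passed no test. With edgeR and DESeq2, Pdgfra in clone 4 against control was 0.45 and 0.44, and clone 18 against clone 4 was -0.14 and -0.15. Without tumors 10 and 13 together, an alternative chosen after seeing the data, knockout against control was -0.000964 for Pdgfd and -0.14 for Pdgfra, Pdgfd in clone 4 against control was -0.41, Pdgfb in clone 18 against clone 4 was 0.0634, and 11 pathway genes were lower. Both edgeR and DESeq2 called 5 pathway genes higher. With 1 tumor left out at a time, knockout against control ranged from -0.18 to 0.36 for Pdgfra. In clone 4 against control the ranges were -0.41 to 0.31 for Pdgfd, -0.77 to 0.44 for Pdgfra and -0.227 to 0.025 for Pdgfrb. In clone 18 against control Pdgfc ranged from -0.0463 to 0.0585. In clone 18 against clone 4 the ranges were -0.0877 to 0.0228 for Pdgfb, -0.15 to 1.07 for Pdgfra and -0.22 to 0.0324 for Pdgfrb. The count of lower pathway genes ranged from 6 to 12, with 12 without tumor 10. The causes were not tested. No paired analysis was possible because the tumor numbers do not link tumors of different groups. Depth limits Pdgfd, with 22 reads in tumor 6, and the spread between tumors limits Pdgfra.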
